A study of Mus musculus with 12 samples.

Results

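The genes described here are 10 mouse genes that mark or arm natural killer (NK) cells and cytotoxic lymphocytes: *Eomes*, *Ncr1*, *Klrb1c*, *Klrd1*, *Gzma*, *Gzmb*, *Prf1*, *Nkg7*, *Ccl5* and *Ifng*. They were chosen as a list of symbols, each matched to 1 Ensembl identifier, among the 54532 genes of a table of read counts from whole lung. All 10 passed the filter on low counts and were tested with 17473 genes in all. The study asked, per its title, about RhoA in Clara cells (club cells) of the airway lining in allergic airway inflammation.

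Mice of the CKO genotype carried Cc10-Cre and 2 floxed alleles of *Rhoa*, and mice of the WT genotype carried Cc10-Cre alone, so that the driver was present in every animal. Each genotype received either CRE, a treatment the labels do not spell out and which is taken here as distinct from the Cre recombinase, or PBS. The groups were thus CKO_CRE, WT_CRE, CKO_PBS and WT_PBS, with 3 libraries each. The sources used here give neither the dose and timing of CRE nor the strain and age of the mice. The Cc10 promoter is a promoter of club cells, so NK cells and T cells are not the cells in which it drives Cre. The labels do not say that the 3 libraries of a group came from separate animals, so the p-values measure only the spread between these libraries. By Y-linked counts CKO_CRE, WT_CRE and CKO_PBS each held libraries of both sexes, so each came from more than 1 animal, and for WT_PBS the counts do not show it.

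NK cells are innate lymphocytes that recognise stressed or infected cells through germline-encoded activating and inhibitory receptors. They kill by releasing granules, in which perforin opens the way for granzymes, and they secrete interferon gamma and chemokines. T-box factors such as Eomes set up this programme. CD8 T cells, and in part other lymphocytes, use the same granule proteins, whereas Ncr1 and Klrb1c are closer to markers of NK cells and related innate lymphoid cells. The lung holds many NK cells, mostly in its vessels.

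Library totals ran from 16250674 to 21559210 counts, and values are counts scaled to library size (CPM) with TMM factors. The lung markers *Sftpc*, *Scgb1a1*, *Ager* and *Cldn5* together held 10738 to 13994 CPM in CKO_CRE, 10093 to 11940 in WT_CRE, 16964 to 18920 in CKO_PBS and 16500 to 17905 in WT_PBS. All 4 of them fell in both CRE comparisons, but in CKO 2 were called without CKO_PBS replicate 1 or 3. *Rhoa* itself averaged 502 ± 40.0 CPM in CKO_CRE and 525 ± 5.28 in WT_CRE, and 449 ± 45.1 in CKO_PBS and 481 ± 8.88 in WT_PBS (SD, n = 3), with no call between genotypes (adjusted p = 0.728 under CRE and 1 under PBS). As club cells are few among lung cells, *Rhoa* in whole lung is no test of the genotype labels. By Y-linked counts, the female libraries were replicates 2 and 3 of CKO_CRE, replicates 2 and 3 of WT_CRE and replicate 2 of CKO_PBS, so sex and treatment overlapped. On principal component 1, which held 64.4% of the variance, the CKO_CRE libraries scored 10.1, 82.6 and 31.2, and the WT_CRE libraries 71.6 to 84.7, so CKO_CRE replicate 1 lay nearest to the PBS libraries, at -66.5 to -47.3.

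Of the 10 genes, 5 were called in at least 1 of the CRE comparisons, at an adjusted p below 0.05 in edgeR's quasi-likelihood test, where 60.9% of all genes were. Their promoter windows are shown because they are the members that differed with the treatment, and because lymphocyte factors of known binding letters allow the windows to be searched. The windows run from 250 bases before to 50 bases after the RefSeq start, 5′ to 3′ on the gene's strand, on GRCm38.p6. RefSeq starts can differ from the GENCODE positions given below. The *Klrb1c* window lies wholly inside the GENCODE gene, which spans 128778485 to 128789215. Capitals mark matches to 5 motifs, searched on both strands: GGTGTG (T-box), TGTGGTT (RUNX), TGANTCA (AP-1, whose 2 strands read alike), GGGNNTTTCC (NF-kappaB) and GAAANNGAAA (interferon response).
*Eomes*, chr9:118477939-118478238, + strand: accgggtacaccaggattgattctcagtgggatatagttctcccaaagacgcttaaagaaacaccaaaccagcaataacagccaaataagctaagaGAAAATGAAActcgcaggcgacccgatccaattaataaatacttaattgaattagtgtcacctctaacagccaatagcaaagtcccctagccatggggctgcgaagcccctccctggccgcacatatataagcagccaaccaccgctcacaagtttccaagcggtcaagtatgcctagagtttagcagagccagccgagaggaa
*Ncr1*, chr7:4337474-4337773, + strand: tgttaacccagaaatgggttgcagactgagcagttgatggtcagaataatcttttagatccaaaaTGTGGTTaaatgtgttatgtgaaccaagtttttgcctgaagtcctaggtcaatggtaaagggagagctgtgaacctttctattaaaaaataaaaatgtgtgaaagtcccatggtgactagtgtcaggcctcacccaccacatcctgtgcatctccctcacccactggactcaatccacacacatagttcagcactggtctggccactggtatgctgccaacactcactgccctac
*Klrb1c*, chr6:128788592-128788891, - strand: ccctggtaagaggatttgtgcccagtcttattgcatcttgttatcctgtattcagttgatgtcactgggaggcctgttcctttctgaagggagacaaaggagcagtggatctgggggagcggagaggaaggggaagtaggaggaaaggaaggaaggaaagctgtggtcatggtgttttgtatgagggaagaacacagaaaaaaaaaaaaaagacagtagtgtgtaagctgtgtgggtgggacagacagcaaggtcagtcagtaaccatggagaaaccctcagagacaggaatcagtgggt
*Nkg7*, chr7:43436888-43437187, + strand: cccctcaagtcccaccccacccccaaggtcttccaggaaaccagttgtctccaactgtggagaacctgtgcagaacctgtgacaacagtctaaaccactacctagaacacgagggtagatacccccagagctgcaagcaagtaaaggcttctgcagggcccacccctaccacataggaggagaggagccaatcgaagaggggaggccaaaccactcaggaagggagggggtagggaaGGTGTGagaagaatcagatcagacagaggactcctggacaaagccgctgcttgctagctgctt
*Ifng*, chr10:118440796-118441095, + strand: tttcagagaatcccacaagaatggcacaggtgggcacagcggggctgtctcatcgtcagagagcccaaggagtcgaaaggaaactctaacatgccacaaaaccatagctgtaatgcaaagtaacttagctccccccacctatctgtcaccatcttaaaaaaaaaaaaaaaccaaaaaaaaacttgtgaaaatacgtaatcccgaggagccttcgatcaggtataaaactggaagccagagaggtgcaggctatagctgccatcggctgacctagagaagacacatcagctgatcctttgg

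The *Eomes* window holds an interferon response match whose first base is at -154 from the start, the *Ncr1* window a RUNX match at -185 and the *Nkg7* window a T-box match at -13. No match to these letters is in the *Klrb1c* and *Ifng* windows. Of the 8 members with a window, 3 had the RUNX letters (*Ncr1*, *Gzma* and *Gzmb*), against 5.27% of 32851 windows. The interferon response letters were in 2 (*Eomes* and *Gzma*), against 3.44%, the T-box letters in 1, against 19.0%, the AP-1 letters in 1 (*Gzmb*), against 7.81%, and the NF-kappaB letters in none, against 1.63%. A match is a description of the letters and not a binding site.

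With CRE these genes differed in both directions. In WT lungs *Eomes* and *Nkg7* rose and *Ncr1* and *Klrb1c* fell, whereas in CKO lungs *Ifng* was the 1 gene that passed the test. That is 4 of 10 members called in WT, where 57.0% of all tested genes were called, and 1 of 10 in CKO, where 39.1% were. In WT 2 were called higher and 2 lower, where 28.6% and 28.4% of all genes were, and in CKO 1 was called higher and 0 lower, where 20.6% and 18.5% were. All of these shares lie below the background. The median log2 fold change over the members was 0.17 in CKO and -0.01 in WT, against 0.00 and 0.01 over all tested genes. In whole lung, a change in the number of cells of a type and a change in RNA per cell cannot be told apart.

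**Figure D1:**
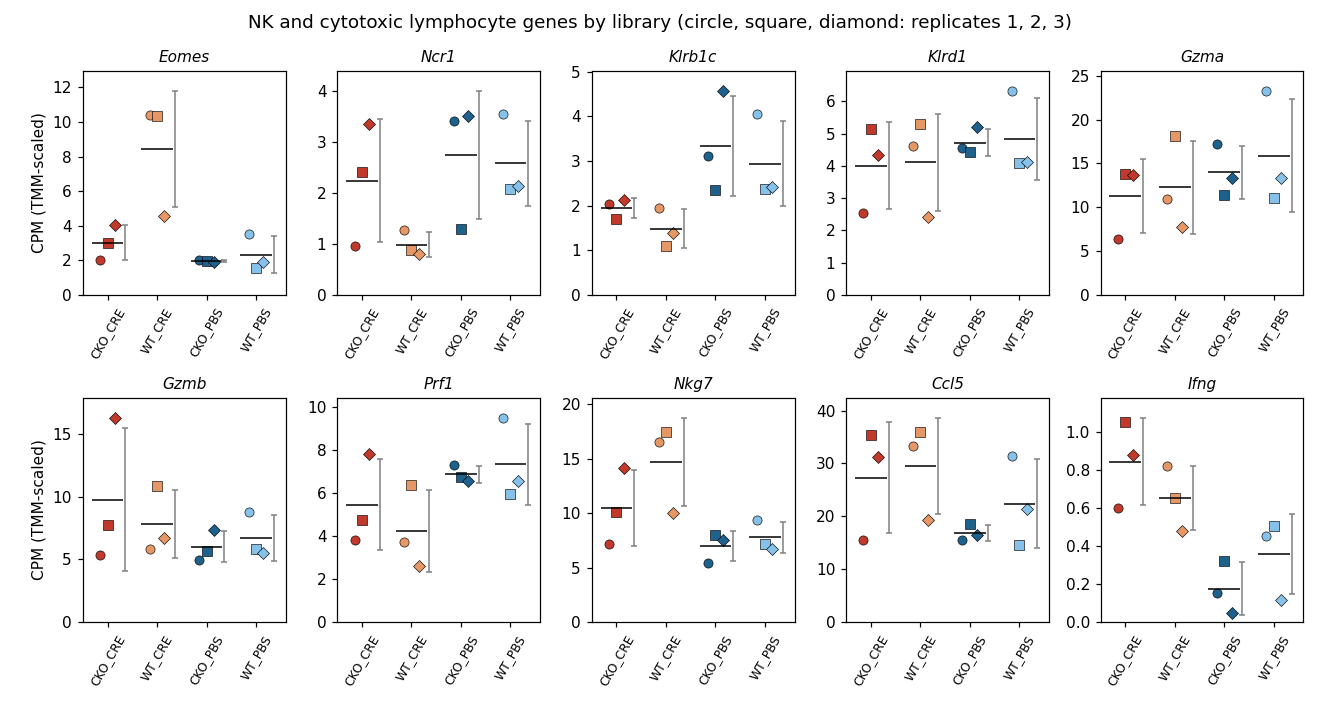
CPM of each of the 10 genes in each of the 12 libraries, by group (circle, square and diamond are replicates 1, 2 and 3; the black line is the mean and the grey bar ± SD, n = 3). *Eomes* is highest in 2 WT_CRE libraries at 10.4 and 10.3 CPM, while *Ncr1* is lowest as a group in WT_CRE.

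*Eomes*, the T-box factor of mature NK cells and effector or memory CD8 T cells (ENSMUSG00000032446, chromosome 9, 118478212 to 118486132, + strand; positions of genes are on GRCm38, mm10), had 2.04, 2.98 and 4.06 CPM in CKO_CRE, against 2.02, 1.99 and 1.87 in CKO_PBS. It had 10.4, 10.3 and 4.55 CPM in WT_CRE, against 3.54, 1.56 and 1.89 in WT_PBS. Every CRE library stood above every PBS library of its genotype, in CKO by a narrow margin, and WT_CRE replicate 3 was well below the other WT_CRE libraries. The log2 fold change was 0.63 ± 0.39 in CKO (SE; adjusted p = 0.22) and 1.85 ± 0.38 in WT (adjusted p = 0.00151). The WT call held under all 19 alternatives run, with log2 fold changes of 1.62 to 2.28. *Eomes* shares 118 exonic bases with the antisense gene *Gm33460*, and with the strand of counting not given, reads of the pair cannot be told apart.

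*Ncr1* (ENSMUSG00000062524, chromosome 7, 4337724 to 4345164, + strand) encodes NKp46, an activating receptor of NK cells and some innate lymphoid cells. It had 0.961, 2.40 and 3.35 CPM in CKO_CRE, against 3.41, 1.29 and 3.51 in CKO_PBS, and 1.26, 0.874 and 0.802 CPM in WT_CRE, against 3.54, 2.07 and 2.12 in WT_PBS. The WT groups were apart and the CKO groups overlapped. Relative to PBS, the log2 fold change was -0.29 ± 0.46 in CKO (adjusted p = 0.647) and -1.40 ± 0.49 in WT (adjusted p = 0.0288). Leaving out WT_PBS replicate 1 ended the WT call (adjusted p = 0.111), as did leaving out WT_CRE replicate 2 (0.0829) or replicate 3 (0.0841) or putting sex in the model (-1.26, adjusted p = 0.103). Over the alternatives for this value the adjusted p ran from 0.00346 to 0.111.

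*Klrb1c* (ENSMUSG00000030325, chromosome 6, 128778485 to 128789215, - strand) encodes the NK1.1 antigen, a lectin-like receptor. It had 2.04, 1.69 and 2.12 CPM in CKO_CRE, against 3.10, 2.36 and 4.56 in CKO_PBS, and 1.96, 1.09 and 1.39 CPM in WT_CRE, against 4.04, 2.37 and 2.42 in WT_PBS. CRE libraries lay below PBS libraries in both genotypes without overlap. The change was, on the log2 scale, -0.77 ± 0.32 in CKO (adjusted p = 0.0739) and -1.00 ± 0.33 in WT (adjusted p = 0.0215). The same left-out libraries as for *Ncr1* ended the WT call, at adjusted p = 0.109, 0.084 and 0.0575, as did sex in the model (-0.69, adjusted p = 0.12), and over all alternatives the adjusted p ran from 0.0129 to 0.12. *Klrb1c* shares 413 exonic bases with *Gm44511* on the same strand, so its counts are uncertain.

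*Klrd1* (ENSMUSG00000030165, chromosome 6, 129591782 to 129598775, + strand) encodes CD94, the partner chain of the NKG2 receptors. It had 2.52, 5.14 and 4.35 CPM in CKO_CRE, against 4.55, 4.43 and 5.19 in CKO_PBS, and 4.60, 5.30 and 2.41 CPM in WT_CRE, against 6.32, 4.08 and 4.13 in WT_PBS. The groups overlapped throughout. The log2 fold changes were -0.24 ± 0.32 in CKO (95% interval -0.93 to 0.46, adjusted p = 0.583) and -0.24 ± 0.32 in WT (-0.94 to 0.45, adjusted p = 0.537). The value of *Klrb1c* in CKO lies within both intervals. The WT values of *Klrb1c*, -1.00, and *Ncr1*, -1.40, lie below the WT interval, though their own intervals overlap it.

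Among the granule proteins, *Gzma* (ENSMUSG00000023132, chromosome 13, 113093825 to 113100981, - strand), which encodes the tryptase-like granzyme A, had 6.43, 13.7 and 13.6 CPM in CKO_CRE, against 17.3, 11.4 and 13.4 in CKO_PBS. It had 10.9, 18.1 and 7.70 CPM in WT_CRE, against 23.2, 11.0 and 13.4 in WT_PBS. All groups overlapped, and the log2 fold change was -0.31 ± 0.37 in CKO (adjusted p = 0.532) and -0.37 ± 0.37 in WT (adjusted p = 0.403). The WT estimate was 0.00 without WT_PBS replicate 1, the highest of all 12 libraries.

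*Gzmb* (ENSMUSG00000015437, chromosome 14, 56258838 to 56262260, - strand) encodes granzyme B, which cleaves after aspartate and starts apoptosis. It had 5.35, 7.71 and 16.2 CPM in CKO_CRE, against 4.96, 5.68 and 7.35 in CKO_PBS, and 5.80, 10.9 and 6.74 CPM in WT_CRE, against 8.79, 5.84 and 5.48 in WT_PBS. CKO_CRE replicate 3 was the highest library, and the groups overlapped. CRE gave a log2 fold change of 0.70 ± 0.38 in CKO (adjusted p = 0.156) and 0.22 ± 0.38 in WT (adjusted p = 0.639). The CKO value passed under 2 of 19 alternatives, limma-voom (1.18, adjusted p = 0.0146) and without CKO_CRE replicate 1 (0.996, adjusted p = 0.0366). Over the left-out libraries it ran from 0.121 to 0.996.

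*Prf1* (ENSMUSG00000037202, chromosome 10, 61297833 to 61304680, + strand) encodes perforin. It had 3.79, 4.73 and 7.82 CPM in CKO_CRE, against 7.29, 6.74 and 6.53 in CKO_PBS, and 3.72, 6.34 and 2.62 CPM in WT_CRE, against 9.45, 5.94 and 6.54 in WT_PBS. The WT_CRE libraries were low but for replicate 2, which lay within the WT_PBS range. The log2 fold change was -0.33 ± 0.33 in CKO (adjusted p = 0.444) and -0.79 ± 0.33 in WT (adjusted p = 0.0576). Under 7 of 19 alternatives the WT value passed, DESeq2 (adjusted p = 0.0449) and limma-voom (0.012) among them, with adjusted p from 0.0112 to 0.211 over all alternatives.

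*Nkg7* (ENSMUSG00000004612, chromosome 7, 43437073 to 43438249, + strand) encodes a membrane protein of cytotoxic granules. It had 7.15, 10.1 and 14.2 CPM in CKO_CRE, against 5.43, 7.99 and 7.50 in CKO_PBS, and 16.5, 17.4 and 10.1 CPM in WT_CRE, against 9.40, 7.20 and 6.72 in WT_PBS. The WT groups were apart, and in CKO the lowest CRE library lay within the PBS range. The change was, on the log2 scale, 0.59 ± 0.27 in CKO (adjusted p = 0.108) and 0.91 ± 0.27 in WT (adjusted p = 0.0129). In CKO it passed under 2 of 19 alternatives, limma-voom (0.91, adjusted p = 0.0107) and without CKO_CRE replicate 1 (0.80, adjusted p = 0.0296). Leaving out WT_PBS replicate 3 ended the WT call (adjusted p = 0.0532), as did leaving out WT_CRE replicate 2 (0.0555) or putting sex in the model (0.0583), and the lowest adjusted p of its alternatives was 0.000831.

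Of the secreted products, *Ccl5* (ENSMUSG00000035042, chromosome 11, 83525778 to 83530518, - strand) encodes the chemokine RANTES, which draws T cells, monocytes and eosinophils. It had 15.5, 35.4 and 31.2 CPM in CKO_CRE, against 15.6, 18.6 and 16.4 in CKO_PBS, and 33.3, 36.0 and 19.2 CPM in WT_CRE, against 31.3, 14.5 and 21.3 in WT_PBS. CKO_CRE replicate 1 lay at the PBS level and the other CKO_CRE libraries near the highest values. CRE gave a log2 fold change of 0.70 ± 0.33 in CKO (adjusted p = 0.111) and 0.40 ± 0.33 in WT (adjusted p = 0.317). Without CKO_CRE replicate 1 the CKO value was 0.98 (adjusted p = 0.0187), and over its alternatives the adjusted p ran up to 0.333.

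*Ifng* (ENSMUSG00000055170, chromosome 10, 118441046 to 118445892, + strand) encodes interferon gamma, which activates macrophages. It had 10, 18 and 15 counts in CKO_CRE (0.601, 1.05 and 0.882 CPM), against 3, 7 and 1 counts in CKO_PBS (0.155, 0.323 and 0.0480 CPM). It had 13, 12 and 9 counts in WT_CRE (0.820, 0.656 and 0.481 CPM), against 9, 10 and 2 counts in WT_PBS (0.455, 0.504 and 0.118 CPM). The CKO groups were apart, and in WT the lowest CRE library lay just below the highest PBS library. Relative to PBS, the log2 fold change was 2.21 ± 0.60 in CKO (adjusted p = 0.013) and 0.82 ± 0.56 in WT (adjusted p = 0.232). The CKO call passed 18 of 19 alternatives, and was lost without CKO_PBS replicate 3, the library with 1 count (1.77, adjusted p = 0.0534). With so few counts the size of the change is imprecise, at 4.64-fold with a log2 95% interval of 0.90 to 3.52. *Ifng* shares 336 exonic bases with *Gm49751* on the same strand.

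Between genotypes no member was called. Under CRE, 0 of 10 were called by edgeR, where 0.916% of all genes were. For no comparison is the share of all genes with an unadjusted p below 0.05 given here, so counts at that level have no background. Of the members, 2 had such a p. These were *Eomes*, lower in CKO_CRE than in WT_CRE by a log2 of -1.47 ± 0.37 (adjusted p = 0.0852), and *Ncr1*, at 1.20 ± 0.50 (adjusted p = 0.234). For *Eomes* the highest CKO_CRE library, at 4.06 CPM, lay below the lowest WT_CRE library, at 4.55, whereas for *Ncr1* the groups overlapped through CKO_CRE replicate 1.

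DESeq2 called 1 member under CRE, *Eomes* (adjusted p = 0.00714), and limma-voom called 4, which were *Eomes* (0.0037), *Gzmb* (1.04, 0.0211), *Prf1* (0.84, 0.0282) and *Ncr1* (1.35, 0.0388). Of all genes, DESeq2 called 4.69% in this comparison and limma-voom 43.8%, so the limma-voom count of members was near that tool's share of all genes. Over the alternatives the adjusted p of the *Eomes* difference ran from 0.0037 to 0.311. *Eomes* lies on chromosome 9, as does the floxed gene *Rhoa* (108306129 to 108337934), 10.14 megabases away. Linkage to the floxed locus and the effect of the deletion cannot be told apart for such a gene by these groups, although under PBS the *Eomes* difference was -0.25 ± 0.39 (adjusted p = 1).

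Under PBS, 0 of 10 members were called and 0 had an unadjusted p below 0.05 in edgeR, DESeq2 or limma-voom, while 0.109% of all genes were called. The difference was negative for 8 of 10 members, with a median of -0.16. In 9 of 10 members WT_PBS replicate 1 was the highest library of its group, and without it the sign turned for *Gzma*, *Gzmb*, *Prf1*, *Nkg7*, *Klrd1* and *Eomes*.

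The CRE response in CKO minus that in WT was called for 0 of 10 members, against 0.0458% of all genes. An unadjusted p below 0.05 was reached by 1 member in edgeR, 1 in DESeq2 and 3 in limma-voom, none of them called. The largest differences by size were *Ifng* at 1.40 ± 0.83 (adjusted p = 0.559), *Eomes* at -1.22 ± 0.54 (adjusted p = 0.474) and *Ncr1* at 1.11 ± 0.67 (adjusted p = 0.563). A call in one genotype and none in the other is therefore not shown to be a difference between the genotypes for any of these genes.

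**Figure D2:**
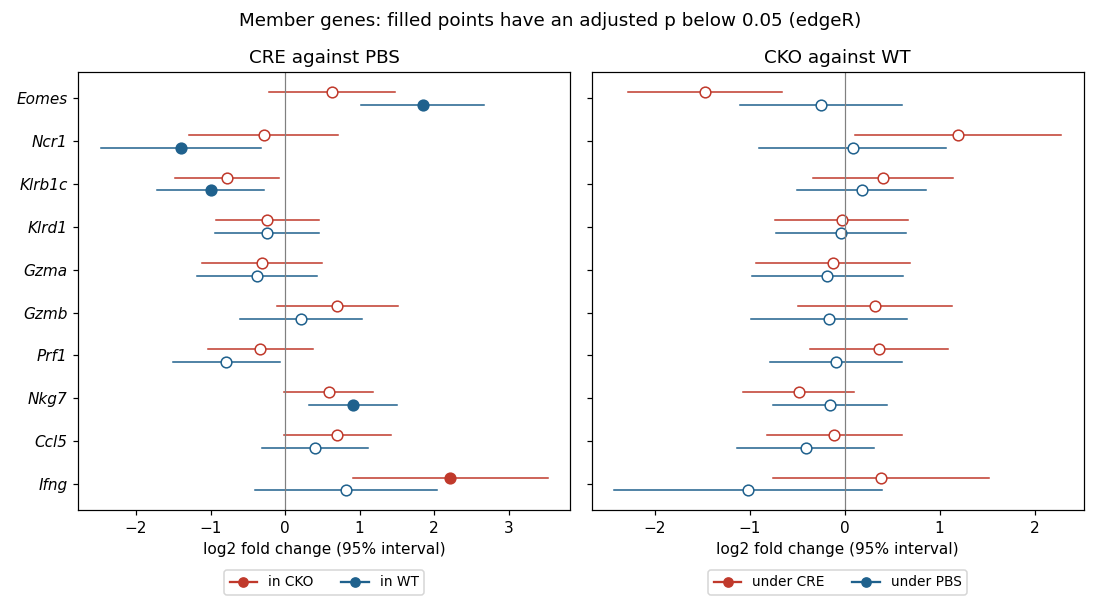
Log2 fold changes with 95% intervals for CRE against PBS in CKO (red) and WT (blue), and for CKO against WT under CRE (red) and PBS (blue); filled points have an adjusted p below 0.05 in edgeR. The filled points are *Ifng* in CKO, at 2.21, and *Eomes*, *Ncr1*, *Klrb1c* and *Nkg7* in WT, at 1.85, -1.40, -1.00 and 0.91.

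Within a group, the same library was often the highest or the lowest for most members. CKO_CRE replicate 1 was the lowest library of its group in 9 of 10 members and the highest in 0, and it was the CKO_CRE library nearest to the PBS libraries on principal component 1. WT_CRE replicate 3 was the lowest in 8 of 10 members, and WT_PBS replicate 1 the highest in 9 of 10. Summed over the members, the libraries held 46.4, 84.9 and 97.8 CPM in CKO_CRE and 89.3, 107 and 56.0 CPM in WT_CRE. Whether these libraries differed in their lymphocytes or in how the tissue was taken was not tested.

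Set on a scale that accounts for gene length (TPM, from counts and exonic length), *Ccl5* had the highest mean of the members in every group. It stood at 85.7 ± 32.1 TPM in CKO_CRE, 84.1 ± 33.1 in WT_CRE, 61.1 ± 3.82 in CKO_PBS and 82.1 ± 31.1 in WT_PBS (SD, n = 3). In every group its range overlapped that of the next gene. In the PBS groups *Gzma* came next, at 48.8 ± 11.9 TPM in CKO_PBS and 55.6 ± 22.7 in WT_PBS, apart from *Nkg7* at 26.5 ± 4.54 and 29.9 ± 5.52. Under CRE *Nkg7* stood just above *Gzma*, at 34.8 ± 13.0 and 33.8 ± 12.7 TPM in CKO_CRE and 43.8 ± 16.1 and 33.4 ± 17.3 in WT_CRE, with overlapping ranges.

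The lower levels followed in the order *Gzmb*, *Klrd1*, *Prf1*, *Ncr1*, *Klrb1c*, *Eomes* and *Ifng* in both PBS groups, with *Ifng* at 0.468 ± 0.359 TPM in CKO_PBS and 0.974 ± 0.569 in WT_PBS. Neighbours in this order did not overlap in CKO_PBS for *Klrd1* and *Prf1*, *Prf1* and *Ncr1*, *Klrb1c* and *Eomes*, and *Eomes* and *Ifng*, while in WT_PBS all of these overlapped. In WT_CRE *Eomes* stood above *Prf1* and *Ncr1* by mean, at 5.58 ± 2.65 TPM against 4.49 ± 2.39 and 1.72 ± 0.562. Its range, 2.52 to 7.15 TPM, overlapped that of *Prf1*, 2.34 to 7.06. In CKO_CRE *Eomes* stood at 2.21 ± 0.812 TPM, below *Ncr1* at 4.41 ± 2.50, with overlap.

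Within a library, the TPM of *Gzmb* over that of *Gzma* was 0.583, 0.394 and 0.833 in CKO_CRE, against 0.201, 0.350 and 0.386 in CKO_PBS, and 0.373, 0.420 and 0.613 in WT_CRE, against 0.265, 0.371 and 0.287 in WT_PBS. The CRE ratios were above the PBS ratios of the same genotype, although the lowest CRE and the highest PBS ratio nearly met in each. No test was made of this ratio.

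The summed CPM of *Ncr1* and *Klrb1c* was then set against that of 9 T cell markers (*Cd3e*, *Cd3d*, *Cd3g*, *Trac*, *Trbc1*, *Trbc2*, *Cd5*, *Cd6* and *Cd28*). The pair amounted to 3.61%, 2.21% and 3.22% of the T cell sum in CKO_CRE, against 7.73%, 2.85% and 12.1% in CKO_PBS. In WT_CRE it amounted to 1.46%, 0.979% and 1.15%, against 8.97%, 5.42% and 6.66% in WT_PBS. The 3 WT_CRE libraries were the lowest of all 12. Both genes of the pair had been called lower in WT, so this is not a separate result. Some NK cell genes left out of the sum were also called lower in WT, among them *Klrb1b*, *Klri2*, *S1pr5* and *Sh2d1b1*, as given below. Others, *Klra4*, *Klra8* and *Klre1*, were not called in WT. *Klra4* was at -0.68 (adjusted p = 0.136) and *Klra8* at -0.45 (adjusted p = 0.31). *Klre1* averaged 1.82 ± 0.799 CPM in WT_CRE and 2.06 ± 0.786 in WT_PBS. The T cell part of the ratio also differed between groups: these markers summed to 83.3, 185 and 170 CPM in CKO_CRE, 220, 201 and 190 in WT_CRE, 84.2, 128 and 66.9 in CKO_PBS and 84.5, 81.8 and 68.1 in WT_PBS.

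**Figure D3:**
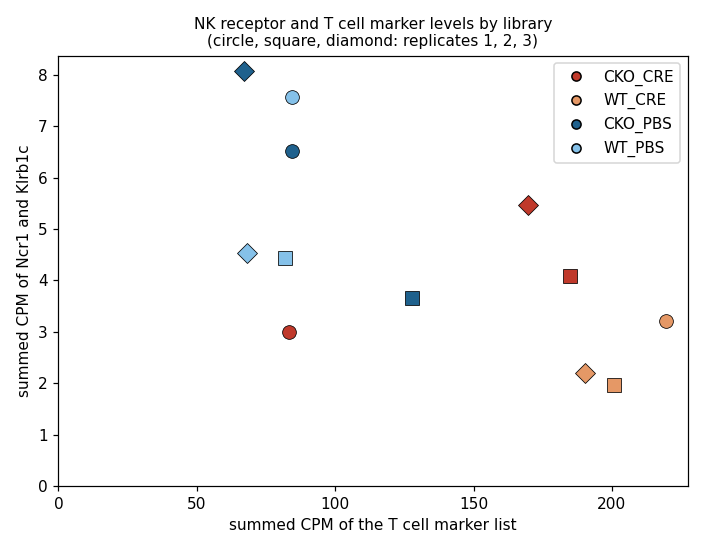
Summed CPM of *Ncr1* and *Klrb1c* against the summed CPM of 9 T cell markers, 1 point per library (circle, square and diamond are replicates 1, 2 and 3). The WT_CRE libraries lie at 190 to 220 CPM of T cell markers, and CKO_CRE replicate 1 lies at 83.3 CPM, within the PBS range on that axis. Its sum of *Ncr1* and *Klrb1c*, 3.00 CPM, is below that of every PBS library, the lowest being 3.65.

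Counts of this and the later lists are of called genes, so rose and fell there mean called higher and called lower. Of all genes, 20.6% were called higher and 18.5% lower in CKO, and 28.6% and 28.4% in WT. Between genotypes under CRE 0.916% were called. These shares are edgeR's and apply to the edgeR counts of each list. DESeq2 called 35.5% of all genes in CKO, 44.6% in WT and 4.69% between genotypes under CRE. In limma-voom the shares were 45.9%, 69.1% and 43.8%, so counts by these tools are to be read against their own shares. Of the T cell markers, 3 of 9 rose in CKO and 8 of 9 in WT, with median log2 fold changes of 0.62 and 1.46. The fold change was positive for all 9 in both genotypes. DESeq2 also called 3 in CKO and 8 in WT, and limma-voom 8 in each. The CKO count was 8 without CKO_CRE replicate 1, 6 without CKO_PBS replicate 2 and 0 without any 1 of the other CKO libraries. *Cd4*, the co-receptor of helper T cells, rose in both, at 0.86 ± 0.27 in CKO (adjusted p = 0.0234) and 1.60 ± 0.27 in WT (adjusted p = 0.000472), but its CKO call was lost without CKO_PBS replicate 1 or 3 or CKO_CRE replicate 2 or 3. *Cd8a*, the co-receptor of cytotoxic T cells, was not called, at 0.39 ± 0.40 in CKO (adjusted p = 0.467) and 0.95 ± 0.40 in WT (adjusted p = 0.0603), nor was *Cd8b1*, at 0.16 ± 0.35 (adjusted p = 0.741) and 0.61 ± 0.35 (adjusted p = 0.153). DESeq2 and limma-voom each called 1 of these 2 genes in WT and 0 in CKO. Their part in the levels of the granule genes that NK cells and T cells share was not tested.

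Markers of other cells moved too. Of 5 genes of type 2 innate lymphoid cells and Th2 cells, 4 rose in CKO and 5 in WT. Among them *Il13*, a cytokine of type 2 immunity, was lower in CKO_CRE than in WT_CRE, at 3.07 ± 1.08 and 12.9 ± 3.16 CPM (log2 -2.07 ± 0.38, adjusted p = 0.028), as was *Il1rl1*, the receptor for interleukin 33, at 15.4 ± 3.40 and 38.2 ± 6.11 CPM (-1.31 ± 0.25, adjusted p = 0.0322). The count of this list between genotypes under CRE was thus 2, but 0 without any 1 of the WT libraries or without CKO_CRE replicate 1 or 3, and 4 without CKO_CRE replicate 2. DESeq2 called 3 and limma-voom 5. Of 3 B cell markers 1 rose in CKO and 3 in WT. The B cell count in CKO was 3 without CKO_CRE replicate 1 and 0 without CKO_CRE replicate 2 or any CKO_PBS library. Of 3 markers each, those of plasmacytoid dendritic cells rose in 2 cases in CKO and 1 in WT, and those of mature dendritic cells in 2 in each. The plasmacytoid calls were *Bst2* and *Ccr9* in CKO and *Bst2* in WT, while *Siglech* was called in neither. *Bst2* averaged 96.6 ± 5.78 CPM in WT_PBS, against 3.62 ± 0.277 for *Siglech*. Whether the number of these cells changed was not tested. The plasmacytoid count was 1 in CKO without CKO_PBS replicate 1 or 3 or CKO_CRE replicate 2 or 3, and 0 in WT without any 1 of the WT or CKO_PBS libraries. The mature dendritic count in CKO was 1 without CKO_PBS replicate 1 or 3 or CKO_CRE replicate 2. Of 3 gamma delta T cell genes, 0 rose and 1 fell in CKO, and 1 rose and 1 fell in WT, where the gene that fell in both, *Sox13*, stood at 148 ± 13.2 CPM in WT_PBS and is made by other lung cells. The WT count of calls was 1 without WT_PBS replicate 1. Of the 5 mast cell and basophil genes, 3 were tested, with 1 rise and 0 falls in CKO, and 0 rises and 1 fall in WT. Over the left-out libraries either count ran from 1 to 2, with 2 in WT without WT_PBS replicate 1 or CKO_CRE replicate 1 or 3, and 2 in CKO without any 1 of the WT_PBS libraries, CKO_PBS replicate 2, WT_CRE replicate 1 or 3 or CKO_CRE replicate 1. Of 5 red blood cell genes 0 were called higher in CKO and 1 in WT, although all 5 had a positive fold change in both. The WT count ran from 0 to 5 over the left-out libraries, with 5 without WT_CRE replicate 3. The thymocyte markers summed to at most 1.52 CPM in any library.

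Among 22 other NK cell receptors, 4 rose and 0 fell in CKO, and 4 rose and 3 fell in WT, with medians of 0.18 and -0.23. All of these shares lie below those of all genes, at 20.6% and 18.5% in CKO and 28.6% and 28.4% in WT. Without WT_CRE replicate 1 the WT total was 4. Those that rose are receptors that T cells also carry. *Tigit*, an inhibitory receptor, averaged 7.23 ± 2.31 CPM in CKO_CRE, against 1.28 ± 0.308 in CKO_PBS (log2 2.48 ± 0.31, adjusted p = 0.000218), and 9.11 ± 0.646 in WT_CRE, against 1.17 ± 0.429 in WT_PBS (2.95 ± 0.31, adjusted p = 2.94e-05). *Slamf6* rose by 1.39 ± 0.23 in CKO and 2.55 ± 0.24 in WT, and *Klrg1*, a marker of mature NK and effector T cells, by 1.44 ± 0.28 and 0.94 ± 0.27.

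The receptors that fell in WT are lectin-like receptors of the NK gene complex. *Klrk1*, which encodes the activating receptor NKG2D, averaged 4.68 ± 0.884 CPM in WT_CRE and 8.07 ± 0.618 in WT_PBS (log2 -0.78 ± 0.23, adjusted p = 0.011), and it had -0.02 ± 0.23 in CKO. *Klrb1b* was at -0.98 ± 0.31 in WT (adjusted p = 0.0179) and -0.49 ± 0.30 in CKO (adjusted p = 0.213), and *Klri2* at -0.99 ± 0.37 (adjusted p = 0.0354) and -0.40 ± 0.36 (adjusted p = 0.402). *Klrb1b* has a stretch of 678 bases that matches *Gm44511* at 99.0% identity, which makes its counts uncertain. Of 6 Ly49 genes tested, edgeR called 0 in either genotype, with changes of -0.85 to 1.58 in CKO and -0.68 to 1.18 in WT. The top value in WT was that of *Klra7*, with 1.86 ± 0.318 CPM in WT_CRE and 0.816 ± 0.236 in WT_PBS (adjusted p = 0.0509). DESeq2 called 0 of the 6 in CKO and 1 in WT, and limma-voom 1 in CKO and 2 in WT.

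Of 18 other genes of granules and killing, 13 were tested, of which 8 rose and 0 fell in CKO, and 5 rose and 1 fell in WT. The CKO count was 5 without any 1 of the CKO_PBS libraries or without CKO_CRE replicate 3. *Srgn*, whose product serglycin packs granules in many blood cells, rose by 1.10 ± 0.22 in CKO (adjusted p = 0.00264) and 1.88 ± 0.22 in WT (adjusted p = 5.22e-05). *Ctsc*, the protease that activates granzymes and is also used by myeloid cells, rose by 1.37 ± 0.13 and 1.35 ± 0.13, and *Ctsw*, a protease of cytotoxic cells, by 0.98 ± 0.32 and 1.51 ± 0.33. *Gzmm*, a granzyme, fell in WT, with 0.932 ± 0.314 CPM in WT_CRE and 1.95 ± 0.502 in WT_PBS (log2 -1.05 ± 0.37, adjusted p = 0.0274), and stood at -0.17 ± 0.37 in CKO.

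Of 9 transcription factors of NK and effector cells, 3 rose in CKO and 5 in WT, and 0 fell. The CKO count was 1 without CKO_PBS replicate 1 or 3 and 5 without CKO_CRE replicate 1. *Nfil3*, which NK cell development needs, rose by 0.88 ± 0.24 in CKO (adjusted p = 0.0132) and 1.98 ± 0.25 in WT (adjusted p = 7.3e-05), and *Id2*, which blocks E proteins, by 0.69 ± 0.11 and 0.99 ± 0.11. *Zfp683*, which encodes Hobit, rose in WT at 1.74 ± 0.52 (adjusted p = 0.0139) and stood at 1.19 ± 0.54 in CKO (adjusted p = 0.0997). *Tbx21*, the T-box partner of *Eomes*, was not called, at 0.47 ± 0.37 in CKO (adjusted p = 0.343) and 0.73 ± 0.38 in WT (adjusted p = 0.116).

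Of 8 receptor genes for cytokines that drive NK cells, 3 rose and 1 fell in CKO, and 5 rose and 1 fell in WT. *Il21r* rose by 1.86 ± 0.30 and 2.60 ± 0.31, *Il12rb1* by 1.20 ± 0.40 and 1.94 ± 0.40, and *Il18r1* fell, at -0.64 ± 0.09 and -1.00 ± 0.10. Of 8 cytokine genes, 7 were tested, and *Il21* rose in both genotypes, by 3.70 ± 0.74 and 5.65 ± 0.86. A stretch of 434 bases in *Il21* is identical to one in *Gm12534*, so its counts are uncertain. *Il12b*, a subunit of interleukin 12, fell in WT at -1.65 ± 0.40 (adjusted p = 0.00387) and was at -0.81 ± 0.38 in CKO (adjusted p = 0.109).

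*Il18*, which encodes a cytokine that prompts NK cells to make interferon gamma, was higher in CKO than in WT under CRE. Like *Rhoa* and *Eomes* it lies on chromosome 9 (50554827 to 50581840). It averaged 13.3 ± 3.36 CPM in CKO_CRE and 2.57 ± 0.786 in WT_CRE (log2 2.36 ± 0.23, adjusted p = 0.000549), and 23.6 ± 2.54 in CKO_PBS and 11.5 ± 0.357 in WT_PBS (1.03 ± 0.21, adjusted p = 0.126). It fell with CRE in both, at -0.83 ± 0.20 in CKO and -2.16 ± 0.23 in WT, and the difference of the 2 responses, 1.33 ± 0.31, was not called by edgeR (adjusted p = 0.231). DESeq2 and limma-voom called that difference (adjusted p = 0.0104 and 0.00228), and also the difference between genotypes under PBS (adjusted p = 0.000703 and 0.000266).

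In the list of chemokines and chemokine receptors around *Ccl5*, 8 of 10 rose and 0 fell in CKO, and 6 rose and 1 fell in WT. The macrophage inflammatory proteins *Ccl3* and *Ccl4* rose by 4.60 ± 0.81 and 5.30 ± 0.94 in CKO and by 5.45 ± 0.83 and 5.23 ± 0.89 in WT. *S1pr5*, which guides mature NK cells out of tissue, fell in WT, with 1.37 ± 0.471 CPM in WT_CRE and 3.42 ± 0.970 in WT_PBS (log2 -1.31 ± 0.33, adjusted p = 0.00524), and stood at -0.14 ± 0.31 in CKO (adjusted p = 0.745). *Cx3cr1*, a receptor of mature NK cells and of monocytes and macrophages, also on chromosome 9 (119901616 to 120069879), was higher in CKO_CRE than in WT_CRE, at 31.3 ± 4.44 and 13.4 ± 2.70 CPM (log2 1.22 ± 0.19, adjusted p = 0.0125). It was at 16.8 ± 3.86 CPM in CKO_PBS and 18.2 ± 1.42 in WT_PBS (adjusted p = 1). Of this list edgeR called 1 gene between genotypes under CRE, DESeq2 3 and limma-voom 7. The edgeR count was 0 without WT_CRE replicate 1 or CKO_CRE replicate 3 and 7 without CKO_CRE replicate 2.

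Of 20 genes that receive or answer interferon gamma, 16 rose and 1 fell in CKO, and 11 rose and 1 fell in WT, with medians of 1.03 and 0.61. *Cxcl10* rose by 3.63 ± 0.50 in CKO and 2.48 ± 0.49 in WT, and *Socs1*, an inhibitor of the pathway, by 2.61 ± 0.31 and 3.31 ± 0.31. The receptor chain *Ifngr1* fell slightly, at -0.39 ± 0.09 in CKO and -0.49 ± 0.09 in WT. *Nos2*, which encodes inducible nitric oxide synthase, rose by 2.35 ± 0.54 in CKO and 4.86 ± 0.57 in WT, and was lower in CKO_CRE than in WT_CRE, at 22.9 ± 20.7 and 147 ± 23.4 CPM (log2 -2.69 ± 0.50, adjusted p = 0.0317). That was the 1 call of this list by edgeR between genotypes under CRE, where DESeq2 called 1 and limma-voom 14. The edgeR count was 0 without any 1 of the WT libraries, CKO_PBS replicate 3 or CKO_CRE replicate 3, 4 without CKO_CRE replicate 1 and 3 without CKO_CRE replicate 2. Many of these genes also answer other interferons and are made by cells other than lymphocytes.

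Of 11 signalling genes downstream of NK cell receptors, 6 rose and 0 fell in CKO, and 9 rose and 1 fell in WT. The CKO count was 3 without CKO_PBS replicate 3. *Vav1* rose by 1.55 ± 0.22 and 1.85 ± 0.22 and *Lcp2* by 1.29 ± 0.18 and 1.73 ± 0.18, and both are used in T cells and myeloid cells too. *Sh2d1b1*, which encodes the adaptor EAT-2 of NK cells, fell in WT, with 4.18 ± 0.860 CPM in WT_CRE and 13.0 ± 0.891 in WT_PBS (log2 -1.63 ± 0.23, adjusted p = 0.000172), and stood at -0.14 ± 0.23 in CKO (adjusted p = 0.66).

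**Figure D4:**
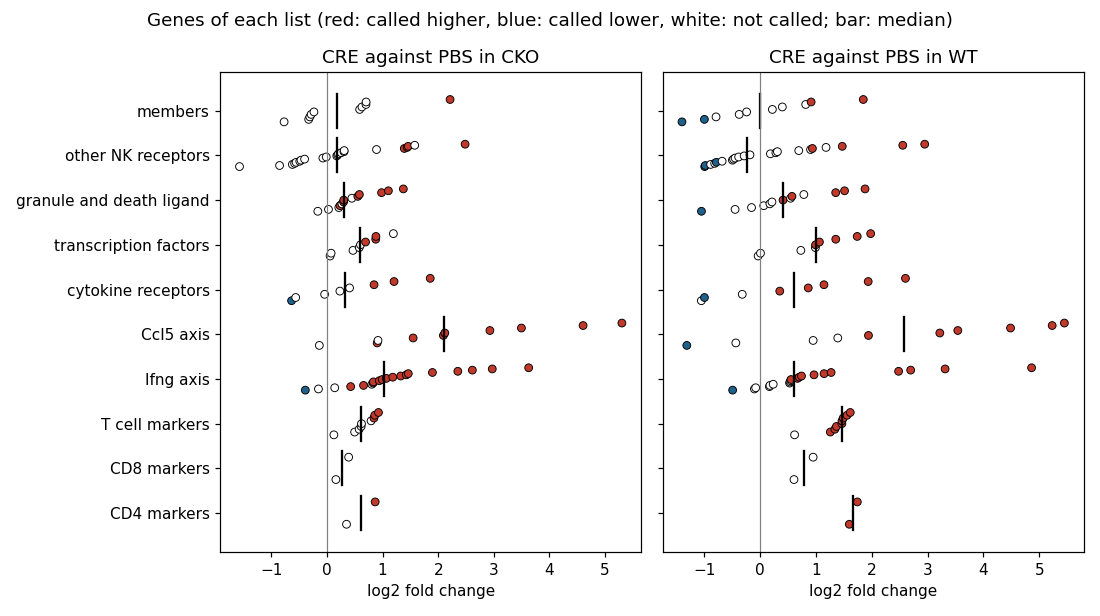
Log2 fold changes of CRE against PBS in CKO (left) and WT (right) for the members and the other lists, 1 point per gene (red called higher, blue called lower, white not called; the bar is the median). The receptor list holds 3 genes called lower in WT, and the T cell markers have a median of 1.46 in WT.

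For each member with a mean of at least 1 CPM, the genes most like it over the 12 libraries were found by the mean absolute difference of log2 CPM, each gene centred on its own mean, among 15303 genes. The nearest genes were of no 1 kind. The gene most like *Gzma* was another member, *Klrd1* (0.196), followed by the NK receptor gene *Klre1* (0.232) and the lymphocyte kinase gene *Txk* (0.245). *Il2rb*, a chain of the receptor for interleukins 2 and 15, was the most like *Nkg7* (0.148). For *Eomes* they were *Cyp11a1* (0.249) and the B cell genes *Bank1* (0.252) and *Pax5* (0.270), and for *Ncr1* they were *Cacna1g* (0.247), *Cox6a2* (0.273) and *Popdc2* (0.273). The nearest to *Klrd1* were *Jrkl* (0.164), *1810014B01Rik* (0.166) and *9130221H12Rik* (0.170), not *Gzma*. The nearest to *Gzmb* was *Gm11131* (0.220), to *Prf1* *Gm3055* (0.161), to *Klrb1c* *1700084E18Rik* (0.145) and to *Ccl5* *Nsmce1* (0.201). These are descriptions of level only, and the 12 libraries share the 2 treatments.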

How the data were processed

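Messenger RNA from whole lung was sequenced in 12 libraries, 3 in each of 4 groups. The authors deposited read counts per gene, not normalized; fastp, STAR and the build mm10 were used, per the submitters' processing notes, with no versions. The sources used here name no counting tool, strand setting or annotation. Libraries held 16250674 to 21559210 counts.

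A model with a mean for each group and all 12 libraries was fitted to the counts in edgeR 4.0.16 under R 4.3.3, after filterByExpr and TMM scaling, and tested by quasi-likelihood. P-values were adjusted over 17473 genes (Benjamini-Hochberg), and a gene was called below 0.05. Where no tool is named, an adjusted p is edgeR's. Fold changes are log2 values ± SE, and CPM are means ± SD. Symbols, positions and exonic lengths for TPM came from GENCODE M21 on GRCm38, which left 37 identifiers unmatched.

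The members and the 20 other gene lists were chosen with earlier results of these data known. All 10 members were named. Of each list, up to 2 higher and 2 lower genes per comparison were eligible, those with the largest change among called genes with at least 1 CPM and groups that did not overlap, and the first 2 of each marker list. *Klrk1*, *Tbx21* and *Klra7* were named after their values were seen, and Sox13 as the 1 gene of its list that fell. Alternatives were DESeq2 1.42.0 (size factors and Wald test), limma 3.58.1 voom with quality weights, a blocking term for the replicate number, no filter on low counts, sex as a covariate, fits to the compared groups alone, a 2-fold threshold, and fits without each library in turn. The test was also tested on simulated counts. Near-identical stretches in transcripts of other genes were sought with blastn 2.17.0 (at least 98% over 200 bases), and no member had such a match.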

Additional observations from a re-analysis of the deposited data

How the results depend on the processing

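Over the 10 genes and 5 comparisons, 857 of the alternative log2 fold changes kept their direction and their side of the threshold, 23 passed it where the reported value had not, 12 no longer passed it and 46 changed sign, none of the last with a call. In WT, 4 members were called, with 1 when sex was in the model, 2 with a 2-fold threshold and 2 to 5 over the left-out libraries. In CKO, 1 was called, with 4 in limma-voom, 2 without the low-count filter and 0 to 4 over the left-out libraries (4 without CKO_CRE replicate 1, 0 without CKO_PBS replicate 3). Under CRE the genotypes gave 0, with 1 in DESeq2, 4 in limma-voom, 1 without the filter and 0 to 1 over the left-out libraries. The genotypes under PBS and the difference between responses gave 0 under all alternatives run. The cause of these shifts was not tested.

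With the replicate number as a block, 4 members were called in WT, 1 in CKO and 0 in each of the other comparisons, so the block changed none of these counts. The deviations of libraries with the same number correlated at r = -0.0334 to 0.176, and not every pair was above 0.1, so the numbers were not taken to pair the libraries. Over all genes the block called 9919 in WT (9959 without it), 6999 in CKO (6830), 17 between genotypes under PBS (19), 151 under CRE (160) and 0 for the difference (8).

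Sign changes outside the left-out libraries were -0.173 for *Gzmb* in WT with sex in the model, and in limma-voom 0.046 for *Prf1* and 0.0348 for *Ncr1* in CKO, 0.0225 for *Klrd1* between genotypes under PBS, 0.118 for *Gzma* under CRE and -0.0975 for *Klrd1* in the difference. Among left-out libraries, values that changed sign ran as follows. In WT, they were -0.776 to 0.0016 for *Gzma*, -0.0981 to 0.459 for *Gzmb* and -0.475 to 0.0294 for *Klrd1*. In CKO, they were -0.699 to 0.0739 for *Ncr1* and -0.455 to 0.0069 for *Klrd1*. Between genotypes under PBS, they were -0.39 to 0.20 for *Gzma*, -0.332 to 0.0832 for *Gzmb*, -0.22 to 0.14 for *Prf1*, -0.267 to 0.00303 for *Nkg7*, -0.14 to 0.42 for *Ncr1*, -0.11 to 0.48 for *Klrb1c*, -0.15 to 0.20 for *Klrd1* and -0.48 to 0.19 for *Eomes*. Under CRE, they were -0.36 to 0.28 for *Gzma*, -0.26 to 0.64 for *Gzmb*, -0.30 to 0.22 for *Klrd1* and -0.34 to 0.18 for *Ccl5*. For the difference, they were -0.31 to 0.47 for *Gzma*, -0.094 to 0.801 for *Gzmb*, -0.0721 to 0.518 for *Klrb1c*, -0.27 to 0.25 for *Klrd1* and -0.0181 to 0.588 for *Ccl5*.

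Over all genes, the counts of calls that moved by more than 1.5 times were 3982 in WT with a 2-fold threshold, and in CKO 3812 with only the groups compared and 2105 with the 2-fold threshold. Between genotypes under PBS they were 108 in DESeq2, 146 in limma-voom, 89 without the filter and 74 with only the groups compared, with 12 to 53 over the left-out libraries. Under CRE they were 806, 7645, 691 and 29 in that order, 99 with the 2-fold threshold, and 38 to 5112 over the left-out libraries. For the difference they were 120 in DESeq2, 4371 in limma-voom, 81 without the filter and 2 with sex in the model, with 0 to 2660 over the left-out libraries.

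Depth limits *Ifng* most, at 1 to 18 counts per library, and with 3 libraries a group smaller changes of the other genes may be missed. Whole lung does not separate NK cells from T cells, and sex, CRE and single libraries overlap as described.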
